A study of Mus musculus with 12 samples.

Results

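The genes described here encode 8 components of the complement system: the proteases C1ra, C1rb, C1s1, C1s2 and Masp1, and the components C3, C4b and Cfb (factor B). They were found by gene symbol among the 11035 genes of a table of unique molecular identifier (UMI) counts, in which all 8 had a row. The libraries came from 3T3-L1 cells, a single established line of mouse fibroblasts that can be driven by hormones to become fat cells. Each was made from 30 ng of RNA by MARS-seq, a method that tags and counts transcripts at their 3′ ends. The cells of all 12 libraries are labelled wild type.

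The 12 libraries form 4 groups of 3. The preadipocyte group was undifferentiated and kept in medium with 10% calf serum. The regular_diff group was induced after confluence for 2 days in 10% fetal bovine serum with 2 µM rosiglitazone, 1 µg/mL insulin, 0.5 mM 3-isobutyl-1-methylxanthine (IBMX) and 1 µM dexamethasone, and then held for 2 days in insulin before plain medium. In the WT_CM group every step of that differentiation ran in an equal mix with medium taken from p53-intact WEA cells, a breast cancer line. In the KO_CM group the conditioned medium came from WEA cells with p53 knocked out, so the knockout lies in the cells that gave the medium and not in the cells whose RNA was counted. No group received the mix with unconditioned medium, so a factor in the conditioned medium, diluted inducers and spent medium cannot be told apart in comparisons with regular_diff. KO_CM against WT_CM compares the same mix with medium from either cancer line. The sample titles name no separate knockout clones or batches of medium. Other differences between the media therefore cannot be told apart from p53 status. Nothing in the labels ties the 3 libraries of a group to separate cultures. The p-values therefore measure only the spread between these libraries, and that spread may be technical.

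Complement is a cascade of plasma proteins in which one protease activates the next. In the classical pathway C1r activates C1s, and C1s cleaves C4 and C2 into the enzyme that splits C3. In the lectin pathway proteases of the MASP family, carried by mannose-binding lectin, ficolins and collectins, reach the same step. In the alternative pathway factor B binds C3b, is cleaved there by factor D and then splits more C3. Liver makes most of these proteins, and fat cells are known to secrete C3, factor B and factor D, the last of which is also called adipsin. Mice carry tandem copies of C1r (C1ra, C1rb), of C1s (C1s1, C1s2) and of C4 (C4a, C4b).

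The 4 genes of the C1 proteases lie side by side on chromosome 6 (mm10, GENCODE vM21). C1ra spans 124512405 to 124523443 on the plus strand and C1s1 spans 124530345 to 124542359 on the minus strand, with 6.901 kb between them. C1rb spans 124570294 to 124581171 on the plus strand and C1s2 spans 124624625 to 124636085 on the minus strand, with 43.453 kb between them. C4b (34728380 to 34743882) and Cfb (34856374 to 34862518) lie 112.491 kb apart on the minus strand of chromosome 17, and C3 (57203970 to 57228136) lies farther along that strand. Masp1 spans 23449417 to 23520815 on the minus strand of chromosome 16. All 8 are protein coding.

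Promoter windows in RefSeq on GRCm38.p6, from 250 bases before to 50 bases after a start site, were matched for 5 of the 8 members. The windows of C3 and of the adjoining protease genes C1ra, C1rb and C1s1 are shown because these genes moved in opposite directions in the comparisons that follow. Capitals mark every match, on both strands, to the letters TTCNNNGAA of a STAT site, TTGCNNAA of a C/EBP site, or GGGA and CC with any 4 bases between them, of an NF-kB site. The interferon response letters, GAAA and GAAA with any 2 bases between them, were also searched and have no match in the windows of the members.
C3, chr17:57228087-57228386, minus strand: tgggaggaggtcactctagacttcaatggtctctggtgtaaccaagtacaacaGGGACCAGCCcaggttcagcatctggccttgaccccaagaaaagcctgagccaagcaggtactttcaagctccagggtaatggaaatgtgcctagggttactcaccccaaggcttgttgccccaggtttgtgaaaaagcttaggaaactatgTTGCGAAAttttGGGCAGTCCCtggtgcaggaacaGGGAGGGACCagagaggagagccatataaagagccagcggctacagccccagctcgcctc
C1s1, chr6:124542310-124542609, minus strand: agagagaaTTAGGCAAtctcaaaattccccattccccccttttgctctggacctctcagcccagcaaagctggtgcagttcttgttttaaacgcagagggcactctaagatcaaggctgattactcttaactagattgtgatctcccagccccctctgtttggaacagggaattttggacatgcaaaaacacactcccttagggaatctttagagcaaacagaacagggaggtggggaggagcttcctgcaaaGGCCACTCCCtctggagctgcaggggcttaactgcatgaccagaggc
C1ra, chr6:124512371-124512670, plus strand: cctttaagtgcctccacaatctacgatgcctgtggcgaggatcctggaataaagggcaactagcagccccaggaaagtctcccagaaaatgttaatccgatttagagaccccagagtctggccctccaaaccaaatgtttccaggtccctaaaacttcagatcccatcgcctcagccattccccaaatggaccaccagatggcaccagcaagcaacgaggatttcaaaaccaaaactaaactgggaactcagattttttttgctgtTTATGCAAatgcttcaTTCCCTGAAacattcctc
C1rb, chr6:124570180-124570479, plus strand: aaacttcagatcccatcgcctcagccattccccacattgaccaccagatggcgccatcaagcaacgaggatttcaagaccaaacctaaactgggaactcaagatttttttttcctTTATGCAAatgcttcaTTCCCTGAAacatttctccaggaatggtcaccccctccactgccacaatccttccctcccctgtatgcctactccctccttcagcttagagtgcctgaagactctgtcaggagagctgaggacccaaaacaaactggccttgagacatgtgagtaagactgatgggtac

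The C3 window holds 3 matches to the NF-kB letters, which begin at -197, -33 and -10 counted from the start site, and 1 to the C/EBP letters at -45. In the C1ra and C1rb windows a C/EBP match and a STAT match stand 8 bases apart, within a stretch of 31 bases that both windows share.
C1ra and C1rb, shared stretch: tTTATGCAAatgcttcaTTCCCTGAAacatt
Because the annotated starts differ, that stretch begins at position 16 in C1ra and at -136 in C1rb. These positions count from the RefSeq starts, which for C1ra and C1rb lie inside the GENCODE spans given above. By those spans the stretch lies within both genes and not upstream of either. The C1s1 window shown has a C/EBP match at -242 and an NF-kB match at position 4. Another C1s1 window, from a different annotated start (chr6:124542272-124542571), has the NF-kB match at -35 and no C/EBP match. The C1s2 window, at chr6:124636036-124636335 on the minus strand, has 1 NF-kB match at -66. Of 32851 mouse promoter windows of the same length 8.3% hold the STAT letters, 20.7% the NF-kB letters, 10.8% the C/EBP letters and 3.44% the interferon response letters. A match describes the letters only.

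Total counts ran from 1458452 to 1836626 in the preadipocyte libraries, 1387854 to 1801316 in regular_diff, 1758814 to 2025317 in WT_CM and 669007 to 1132099 in KO_CM, the shallowest group. Levels are given as CPM, the count of a gene divided by the library's TMM-scaled total and put on a scale of 1000000 counts. The 6 adipocyte markers (Pparg, Cebpa, Adipoq, Fabp4, Plin1, Lpl) summed to 179 to 576 CPM in the preadipocyte group, to 25437 to 27137 CPM in regular_diff, to 24502 to 25712 CPM in WT_CM and to 6727 to 9371 CPM in KO_CM. The 7 fibroblast and preadipocyte markers summed to 5242 to 5867, 2518 to 2722, 3614 to 3879 and 5455 to 6580 CPM in the same order. Plin1 had 0 counts in 1 preadipocyte library and Cd34 had 0 counts in 3 libraries, and no other marker of these lists was at 0. Preadipocyte replicate 5, with the highest adipocyte sum of its group, and KO_CM replicate 1, with the lowest of its group, differed most from their group mates in a chi-square comparison of counts. Of 7 macrophage markers 4 were analysed here and summed to 23.1 to 48.7 CPM over the 12 libraries, and of 7 mammary epithelial markers 4 were analysed here and summed to 4.35 to 60.0 CPM.

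**Figure D1:**
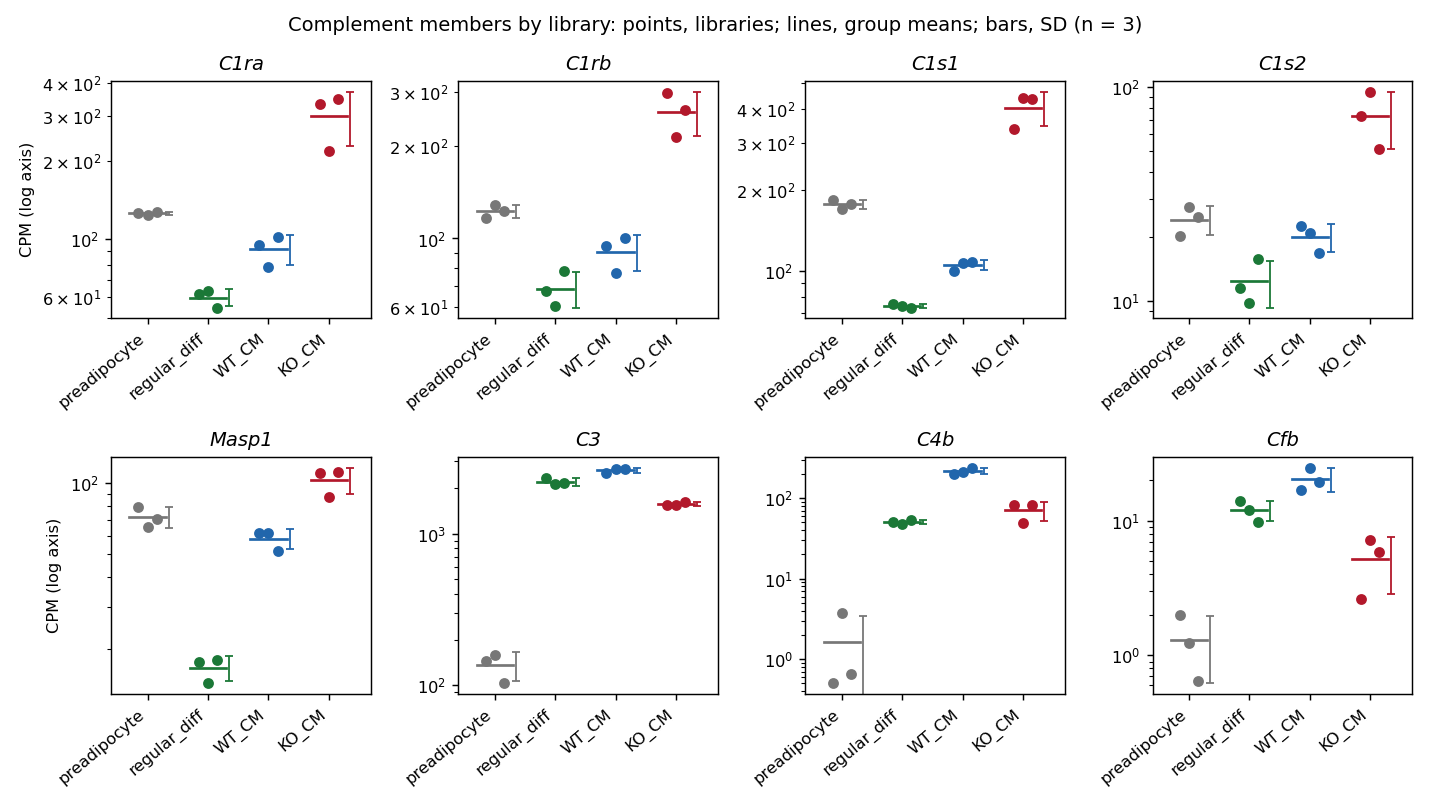
CPM of the 8 members in each library on a log axis, with 1 panel per gene, points for the 3 libraries of a group, a line for the group mean and a bar for the SD. The proteases are highest in KO_CM and lowest in regular_diff, C3 and Cfb are highest in WT_CM and lowest in preadipocyte, and C4b is highest in WT_CM.

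The first comparison, regular_diff against preadipocyte, asks what differentiation does without conditioned medium. The groups also differ in serum, calf against fetal bovine, and the culture time of the preadipocyte group is not given, so these cannot be told apart from differentiation. The 5 proteases fell and C3, C4b and factor B rose. C3, the component on which all 3 pathways meet, was at 145, 159 and 103 CPM in preadipocyte replicates 4, 5 and 6 and at 2345, 2112 and 2147 CPM in regular_diff replicates 4, 5 and 6. C4b, whose product is cleaved by C1s, was at 0.50, 3.73 and 0.649 CPM (1, 6 and 1 counts) in preadipocyte and at 50.4, 47.4 and 54.0 CPM in regular_diff. Every regular_diff library lay above every preadipocyte library for both genes. Factor B, the protease subunit of the alternative convertase, was at 2.00, 1.24 and 0.649 CPM (4, 2 and 1 counts) and at 14.0, 12.04 and 9.87 CPM, again with no overlap. The log2 change was 4.02 ± 0.13 (SE) for C3, with an edgeR adjusted p of 4.45e-20, 4.95 ± 0.35 for C4b, with 2.79e-11, and 3.06 ± 0.46 for Cfb, with 2.67e-06. These are changes of 16.2-fold, 30.99-fold and 8.34-fold on the fitted scale. For C4b the value rests on few preadipocyte counts: without preadipocyte replicate 5 the log2 change was 6.27.

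Among the proteases the C1r copies stood at 127, 124 and 127 CPM (C1ra) and 117, 129 and 123 CPM (C1rb) in preadipocyte, against 61.4, 63.2 and 54.6 CPM and 67.4, 60.2 and 78.4 CPM in regular_diff. C1s1, which encodes C1s, the protease that cleaves C4 and C2, went from 184, 171 and 178 CPM to 75.3, 74.5 and 73.2 CPM. Its copy C1s2 went from 20.02, 27.4 and 24.6 CPM to 11.5, 9.78 and 15.7 CPM. No regular_diff library reached the lowest preadipocyte library for any of these genes. Masp1, which encodes proteases of the lectin pathway, fell from 79.6, 65.3 and 70.7 CPM to 17.6, 14.3 and 18.0 CPM. The log2 change was -2.10 ± 0.18 for Masp1 (edgeR adjusted p = 6.21e-11), -1.26 ± 0.12 for C1s1 (7.68e-10), -1.08 ± 0.15 for C1ra (1.31e-06), -0.83 ± 0.14 for C1rb (1.46e-05) and -0.92 ± 0.27 for C1s2 (0.00458). Masp1 was thus 4.28-fold lower and the C1 proteases 1.78-fold to 2.39-fold lower. All 8 members passed edgeR's test with Benjamini-Hochberg adjustment over 9519 genes at a threshold of 0.05, where 51.2% of all genes tested did, 24.8% higher and 26.4% lower. The members were chosen with earlier results of these data known. Their share set beside that of all genes, here and below, is therefore only a description. The median log2 change was -1.08 over the 5 proteases, 4.02 over C3, C4b and Cfb and -0.06 over all genes tested. The fall of the proteases went with that of the fibroblast and preadipocyte markers, of which 6 of 6 tested fell, and the rise of the 3 components with that of 6 of 6 adipocyte markers. In these bulk libraries, fewer cells of a type and less RNA per cell cannot be told apart, and the part of the cell mix in these results was not tested.

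WT_CM against regular_diff asks what medium from the p53-intact cancer cells adds to differentiation. C4b and Masp1 rose most, and no member fell. C4b was at 199.6, 214 and 240.2 CPM in WT_CM replicates 1, 2 and 3, against 47.4 to 54.0 CPM in regular_diff, a log2 change of 2.1002 ± 0.16 or 4.29-fold (edgeR adjusted p = 4.20e-09). Masp1 was at 61.4, 61.7 and 51.8 CPM, against 14.3 to 18.0 CPM, a log2 change of 1.79 ± 0.18 or 3.47-fold (edgeR adjusted p = 3.90e-08). For both genes every WT_CM library stood far above every regular_diff library. C1s1 rose 1.42-fold to 100.3, 107 and 108 CPM, a log2 change of 0.50 ± 0.12 (edgeR adjusted p = 0.0069). C1ra rose 1.55-fold to 95.2, 78.4 and 103 CPM, a log2 change of 0.63 ± 0.16 (edgeR adjusted p = 0.00828). That makes 4 of 8 members called, all higher, in a comparison that shares its control libraries with the one before, where 9.91% of all genes tested were called, 5.73% higher and 4.18% lower.

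The other 4 members did not pass the test in this comparison. C3 was at 2507, 2687 and 2689 CPM in WT_CM, a log2 difference of 0.26 ± 0.11 from regular_diff with a 95% interval of -0.00 to 0.51 (edgeR adjusted p = 0.177). Cfb was at 16.9, 24.9 and 19.6 CPM, a difference of 0.77 ± 0.28 with an interval of 0.12 to 1.42 (edgeR adjusted p = 0.0908). The libraries of the 2 groups did not overlap for C3 or Cfb. C1s2 (22.5, 20.8 and 16.7 CPM) differed by 0.68 ± 0.27 (edgeR adjusted p = 0.129) and C1rb (94.2, 77.2 and 100.2 CPM) by 0.39 ± 0.14 (edgeR adjusted p = 0.0871), and only C1rb had overlapping libraries. The median log2 difference was 0.63 over the proteases, 0.77 over C3, C4b and Cfb and -0.01 over all genes tested. C3, Cfb and C1rb passed, with edgeR adjusted p of 0.0302, 0.0387 and 0.0253, when preadipocyte replicate 5 and KO_CM replicate 1 were left out, and C1ra did not without regular_diff replicate 6 (0.0661) or WT_CM replicate 3 (0.0659). Over all alternatives the adjusted p ran from 0.00406 to 0.396 for C3, 0.028 to 0.337 for Cfb, 0.0211 to 0.326 for C1rb and 0.000185 to 0.0661 for C1ra. Of the adipocyte markers 1 of 6 was called lower here, and of the fibroblast markers 2 were called higher and 2 lower. The macrophage sum was 44.4 to 48.7 CPM in WT_CM against 23.1 to 29.3 CPM in regular_diff. Within that sum Cd14 rose by 1.38 on the log2 scale and Cd68 differed by -0.60 without passing the test. Of the epithelial markers Krt19 rose by 1.76 on the log2 scale, and Krt8 (0.84) and Krt18 (-0.01) did not pass. The part of these markers in the rises was not tested.

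**Figure D2:**
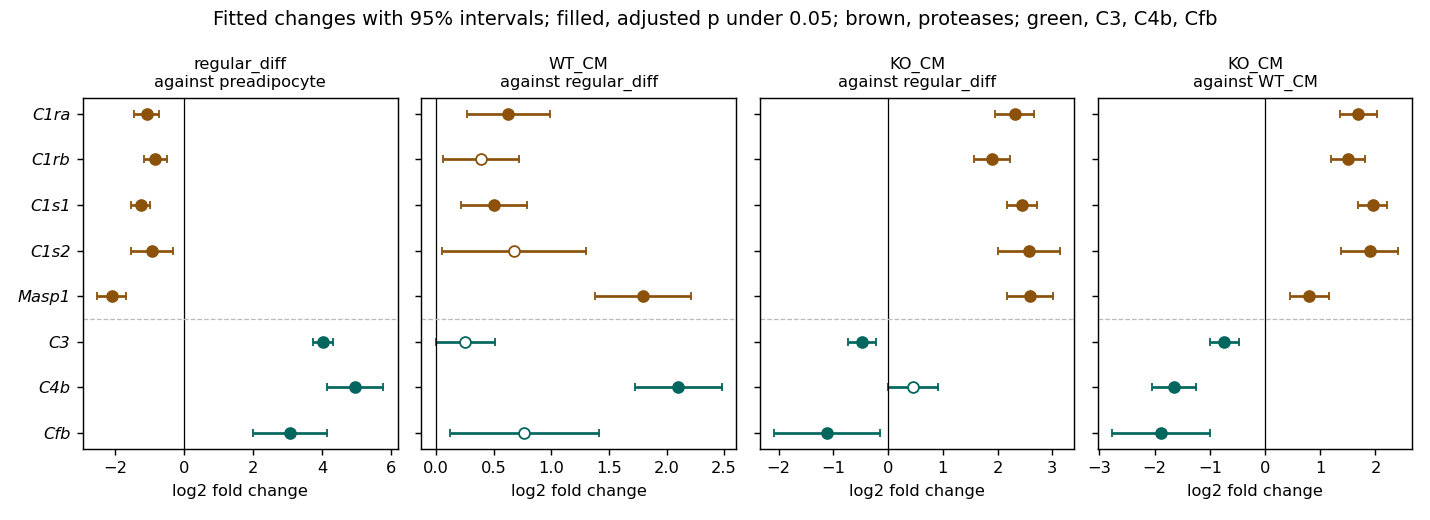
Log2 fold change of each member in 4 comparisons, with 95% intervals. These use the SE of the edgeR fit of 3 libraries per group and its 8 residual degrees of freedom. Filled points have an adjusted p under 0.05, and colours separate the 5 proteases from C3, C4b and Cfb. Under KO_CM against WT_CM all 5 proteases lie above 0 and all 3 components below.

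KO_CM against regular_diff asks the same of medium from the p53-knockout cancer cells. All 5 proteases rose, by 3.73-fold for C1rb to 6.05-fold for Masp1, while C3 and factor B fell. C1s1 was at 337, 441 and 438 CPM in KO_CM replicates 1, 2 and 3, C1ra at 334, 218 and 347 CPM and C1rb at 299, 215 and 262 CPM. C1s2 was at 73.4, 94.8 and 51.3 CPM and Masp1 at 110.1, 87.6 and 111 CPM. The lowest KO_CM library was above the highest regular_diff library for all 5 genes. The log2 change was 2.60 ± 0.18 for Masp1 (edgeR adjusted p = 5.20e-12), 2.57 ± 0.25 for C1s2 (1.53e-09), 2.45 ± 0.12 for C1s1 (5.96e-15), 2.32 ± 0.15 for C1ra (3.24e-12) and 1.90 ± 0.14 for C1rb (1.40e-11). With C3 and Cfb, 7 of 8 members were called, 5 higher and 2 lower, where 34.6% of all genes tested were called, 17.2% higher and 17.3% lower.

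C3 fell to 1544, 1555 and 1624 CPM, below every regular_diff library, a log2 change of -0.48 ± 0.11 or 1.399-fold lower (edgeR adjusted p = 0.0011). Cfb was at 2.62, 7.22 and 5.86 CPM, from 2, 8 and 4 counts, and fell by 1.12 ± 0.42 on the log2 scale (edgeR adjusted p = 0.0391). These counts are too few for a firm call: it was lost without regular_diff replicate 4 (0.127) or 5 (0.0721), WT_CM replicate 3 (0.0536), or KO_CM replicate 1 (0.168) or 3 (0.0777), over a range of 0.0371 to 0.168. C4b was at 82.5, 49.7 and 82.1 CPM, which overlaps regular_diff, and its difference of 0.45 ± 0.20 had a 95% interval of -0.01 to 0.91 (edgeR adjusted p = 0.0844). That value was not firm: without KO_CM replicate 2 the difference was 0.72 (edgeR adjusted p = 0.00594). C4b also passed without preadipocyte replicate 5 (0.0268) and after thinning all libraries to the smallest total (0.0478), over a range of 0.00594 to 0.298. The median log2 change was 2.45 over the proteases, -0.48 over C3, C4b and Cfb and -0.00 over all genes tested. Of the adipocyte markers 5 of 6 were called lower in this comparison, and Fabp4 (-1.47 on the log2 scale) was lower without passing the test. All 6 fibroblast and preadipocyte markers tested rose, and the part of these markers in the changes was not tested.

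KO_CM against WT_CM compares medium from the p53-knockout cancer cells with medium from the p53-intact cancer cells. All 5 proteases were higher with medium from knockout cells and C3, C4b and factor B were lower. For none of the 8 did the libraries of the 2 groups overlap. The share of all genes tested without such overlap was not worked out for any comparison. C1s1 was 3.85-fold higher (405 ± 59.5 against 105 ± 4.39 CPM, SD, n = 3), C1s2 3.72-fold (73.2 ± 21.8 against 20.001 ± 2.98 CPM), C1ra 3.23-fold (299.95 ± 70.9 against 92.0 ± 12.4 CPM) and C1rb 2.84-fold (259 ± 42.1 against 90.5 ± 11.9 CPM). Masp1 differed least among the proteases, 1.74-fold (103 ± 13.4 against 58.3 ± 5.62 CPM). The log2 changes were 1.95 ± 0.12 for C1s1 (edgeR adjusted p = 6.37e-13), 1.90 ± 0.22 for C1s2 (1.37e-07), 1.69 ± 0.15 for C1ra (8.93e-10), 1.504 ± 0.14 for C1rb (1.28e-09) and 0.80 ± 0.15 for Masp1 (0.000156). C4b was 3.14-fold lower (71.4 ± 18.9 against 218 ± 20.6 CPM, log2 change -1.65 ± 0.17, edgeR adjusted p = 9.23e-08). Cfb was 3.69-fold lower (5.23 ± 2.36 against 20.5 ± 4.10 CPM, log2 change -1.89 ± 0.38, edgeR adjusted p = 0.000366). C3 was 1.67-fold lower (1574 ± 43.1 against 2628 ± 105 CPM, log2 change -0.74 ± 0.11, edgeR adjusted p = 8.67e-06). All 8 were called, where 27.6% of all genes tested were, 13.6% higher and 13.9% lower, and all 8 were called under each of the alternatives run for the member count. The medians were 1.69 over the proteases, -1.65 over the 3 components and -0.01 over all genes tested. Of the adipocyte markers 4 of 6 were called lower in KO_CM, and Adipoq (-1.73 on the log2 scale) and Fabp4 (-1.66) were lower without passing the test. All 6 fibroblast and preadipocyte markers tested were called higher. The epithelial marker Krt18 (-1.52 on the log2 scale) and the macrophage marker Cd14 (-0.65) were called lower. Krt8 (-1.40), Krt19 (-1.30) and Cd68 (-0.83) were lower without passing the test. The macrophage markers Lyz2 and Aif1 and the epithelial marker Krt14 had too few counts for the test. Their means were higher in KO_CM (2.94, 4.28 and 1.88 CPM) than in WT_CM (1.15, 0.93 and 0.17 CPM). The part of these markers in the differences was not tested.

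Set against the undifferentiated cells, all 8 members were higher in KO_CM, where 20.5% of all genes tested were called, 12.1% higher and 8.4% lower. The proteases passed their preadipocyte level by 2.28-fold for C1s1, 3.14-fold for C1s2, 2.36-fold for C1ra, 2.099-fold for C1rb and 1.41-fold for Masp1. The fibroblast and preadipocyte marker sums of these groups overlap, at 5455 to 6580 CPM in KO_CM and 5242 to 5867 CPM in preadipocyte. Col3a1 made up most of both sums, with means of 4815 CPM in KO_CM and 4391 CPM in preadipocyte. Of the 6 markers tested 1 was called higher, Pdgfra (1.34 on the log2 scale), and 1 lower, Col1a1 (-0.61). The Cfb value, 1.94 ± 0.61 on the log2 scale (edgeR adjusted p = 0.0231), was not called without preadipocyte replicate 6 (0.0741) or without KO_CM replicate 2 (0.187) or 3 (0.0527), over a range of 0.0118 to 0.244. The Masp1 value, 0.50 ± 0.15 (edgeR adjusted p = 0.0158), was not called without KO_CM replicate 1 (0.064) or 3 (0.0586), over a range of 0.0076 to 0.129. In WT_CM against preadipocyte 3 members were higher and 3 lower, where 47.1% of all genes tested were called, 23.1% higher and 24.1% lower. C3 was higher by 4.27 ± 0.13, C4b by 7.05 ± 0.28 and Cfb by 3.83 ± 0.42 on the log2 scale. The C4b value was 8.37 without preadipocyte replicate 5 and 5.43 with the C4 copies summed. By contrast, C1s1 (-0.75 ± 0.12), C1ra (-0.45 ± 0.15) and C1rb (-0.43 ± 0.14) stayed below their preadipocyte level. C1s2, at -0.25 ± 0.24 (edgeR adjusted p = 0.42), and Masp1, at -0.30 ± 0.14 (edgeR adjusted p = 0.0849), did not pass. C1ra and C1rb were not called without WT_CM replicate 2 (0.0717 and 0.0625), and Masp1 was called without preadipocyte replicate 5 (0.0348). Over the alternatives the edgeR adjusted p ran from 0.00212 to 0.0717 for C1ra, 0.00101 to 0.0625 for C1rb and 0.0132 to 0.292 for Masp1, with DESeq2 among them.

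The order of the group means was the same for all 5 proteases: KO_CM, then preadipocyte, then WT_CM, then regular_diff. Neighbours in that order that were not called apart were preadipocyte and WT_CM for C1s2 and Masp1, and WT_CM and regular_diff for C1s2 and C1rb. For C3 and Cfb the order was WT_CM, regular_diff, KO_CM, preadipocyte, with WT_CM and regular_diff not called apart. For C4b it was WT_CM, KO_CM, regular_diff, preadipocyte, with KO_CM and regular_diff not called apart.

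To put both roles on one scale, the log2 CPM of the 5 proteases and of C3, C4b and Cfb were averaged within each library. The mean over the proteases was 6.43, 6.47 and 6.46 in the preadipocyte libraries, 5.25, 5.13 and 5.34 in regular_diff, 6.08, 5.97 and 6.01 in WT_CM and 7.61, 7.48 and 7.56 in KO_CM. The mean over the 3 components was 3.27, 3.68 and 2.90, then 6.94, 6.80 and 6.78, then 7.71, 7.95 and 7.90, and then 6.32, 6.46 and 6.63. Between the preadipocyte libraries the component mean thus spread more than the protease mean. The difference of the means, components minus proteases, was -3.16, -2.78 and -3.56 in the preadipocyte libraries, 1.69, 1.67 and 1.44 in regular_diff, 1.63, 1.99 and 1.89 in WT_CM and -1.28, -1.02 and -0.93 in KO_CM. It was above 0 in each regular_diff and WT_CM library and below 0 in the others, and regular_diff and WT_CM overlapped. Since 3′ counts of different genes were averaged, this difference compares libraries and not the abundance of one role with that of the other.

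**Figure D3:**
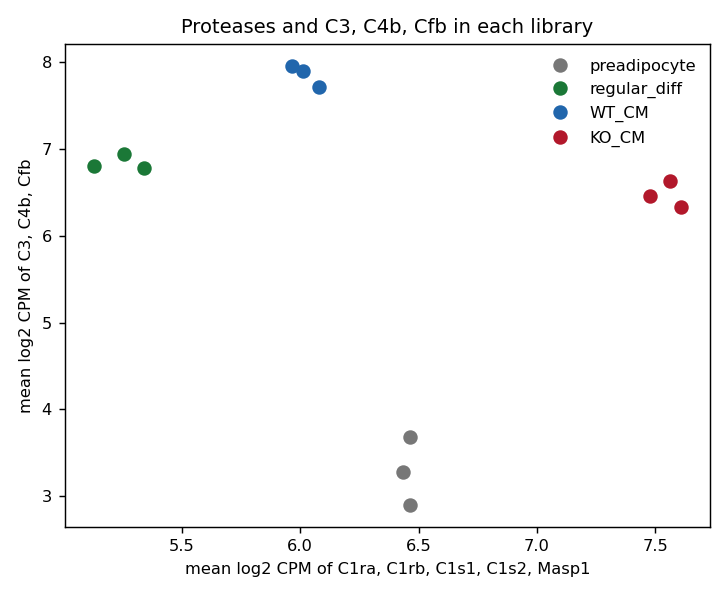
Mean log2 CPM of the 5 proteases (C1ra, C1rb, C1s1, C1s2, Masp1) against mean log2 CPM of C3, C4b and Cfb, with 1 point per library coloured by group. KO_CM has the highest protease means, 7.48 to 7.61, with component means of 6.32 to 6.63, below those of regular_diff and WT_CM.

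Among themselves the proteases lay closer together than the components did. The root mean square difference of log2 CPM, each gene centred on its own mean over the 12 libraries, was 0.20 for C1ra and C1rb and at most 0.60 within the proteases (C1s2 and Masp1). It was 0.88 for C3 and C4b, 0.88 for C3 and Cfb and 1.495 for C4b and Cfb, and 1.68 to 2.69 between a protease and a component. These distances are descriptions over 12 libraries that share their groups. They can grow with the size of a gene's changes, which were larger for the components under differentiation. Reads shared between copies may also bring C1ra close to C1rb and C1s1 close to C1s2. By the same measure over 6414 genes other than the members, with a mean of at least 20 CPM, the gene nearest to C3 was Epas1, a hypoxia-inducible transcription factor, at 0.15, and the gene nearest to C1s1 was Pdgfra, a growth factor receptor of mesenchymal progenitors and one of the fibroblast markers listed, at 0.21. Pdgfra was at 136 ± 19.5, 62.9 ± 10.8, 73.8 ± 11.3 and 342 ± 80.8 CPM in the preadipocyte, regular_diff, WT_CM and KO_CM groups. Epas1 was at 5.71 ± 1.62, 89.1 ± 3.91, 118 ± 6.45 and 76.3 ± 5.05 CPM in the same order. Fam43a was nearest to C1ra (0.21) and C1rb (0.19), Adm, a peptide hormone, to C1s2 (0.33), Tinagl1 to Masp1 (0.26), Steap4, a metalloreductase, to C4b (0.33) and Dlc1 to Cfb (0.36).

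The copies limit what can be said of single genes. Of the 31-base stretches in the last 500 bases of its transcripts, C1rb shares 53.19% with C1ra and C1ra shares 25.53% with C1rb, C1s1 shares 34.7% with C1s2 and C1s2 shares 34.04% with C1s1, and C4b shares 36.79% with C4a. C3 and Masp1 share none. Cfb shares 88.61% with Gm20547, a longer gene annotated over it on the same strand and not analysed here. How the authors' counting treated shared reads and strand is not given in the sources used here, so the split between copies is uncertain, as is C1s1 against the antisense gene Gm16567, which lies across it. Masp1 overlaps Rtp4 on the other strand at its 5′ side. The ratio of C1ra to C1rb counts had a median of 1.02 over the libraries and ran from 0.696 to 1.32, and that of C1s1 to C1s2 had a median of 6.37 and ran from 4.45 to 9.20. With copies summed, the log2 change under KO_CM against WT_CM was 1.61 for C1r, 1.94 for C1s and -1.65 for C4, and under regular_diff against preadipocyte -0.95, -1.22 and 3.38. Summing lowered the C4 rise under differentiation from 4.95, since C4a had 6 counts in each preadipocyte library. In WT_CM against regular_diff the sums rose by 0.51 for C1r (edgeR adjusted p = 0.00882), 0.53 for C1s (0.00228) and 2.05 for C4.

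Of 47 other complement genes in 7 lists (recognition, other proteases, the C4 copy, terminal components, soluble and membrane regulators, receptors), 14 were in the table and 9 had counts enough for the test. Of these 9, 4 rose and 2 fell in regular_diff against preadipocyte, 2 rose and 0 fell in WT_CM against regular_diff, 3 rose and 1 fell in KO_CM against regular_diff, and 2 were higher and 1 lower in KO_CM against WT_CM. The background shares are those given above for each comparison. Factor D (Cfd), the protease that cleaves factor B, was at 6.01, 60.3 and 5.19 CPM in preadipocyte, and its mean was 7129 ± 800.3 CPM with regular differentiation, 5355 ± 296 CPM in WT_CM and 994 ± 91.9 CPM in KO_CM. Its log2 change was 8.25 ± 0.77 under differentiation (edgeR adjusted p = 2.24e-05), or 10.26 without preadipocyte replicate 5, and -2.43 ± 0.57 in KO_CM against WT_CM (edgeR adjusted p = 0.0136). The 97 counts of preadipocyte replicate 5 widened the error of Cfd: the difference of -0.41 ± 0.54 between WT_CM and regular_diff (edgeR adjusted p = 0.77) had an adjusted p of 0.000632 without that library, over a range of 4.35e-05 to 0.93. Factor D thus had its lowest differentiated level in KO_CM, as did C3 and Cfb.

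Colec12, a membrane collectin of the recognition list, had the order of the proteases, at 327 ± 14.9, 128 ± 7.76, 177 ± 13.1 and 451 ± 11.6 CPM in preadipocyte, regular_diff, WT_CM and KO_CM. Its log2 change was -1.35 ± 0.10 under differentiation (edgeR adjusted p = 6.56e-12) and 1.35 ± 0.10 in KO_CM against WT_CM (edgeR adjusted p = 4.58e-11), and 11.7% of its 3′ stretches occur in other genes, so its count is uncertain. Clusterin (Clu), a soluble inhibitor of the terminal complex, rose under differentiation and again in both media. It was at 51.5 ± 13.0, 139 ± 13.1, 348 ± 19.6 and 376 ± 53.5 CPM in the same order, with log2 changes of 1.33 ± 0.13 for WT_CM and 1.44 ± 0.14 for KO_CM against regular_diff (edgeR adjusted p = 5.44e-08 and 2.36e-09). KO_CM and WT_CM differed by 0.11 ± 0.13 for Clu, with a 95% interval of -0.19 to 0.41 (edgeR adjusted p = 0.593). Itgb2, the beta chain of complement receptors 3 and 4, was called lower under differentiation and higher in KO_CM against regular_diff and WT_CM on at most 27 counts per library. Its KO_CM calls were lost in 13 of 17 alternatives against regular_diff and in 8 of 19 against WT_CM. C1rl and C8g rose under differentiation by 0.76 ± 0.28 and 2.59 ± 0.49 (edgeR adjusted p = 0.0232 and 6.26e-05). The call for C1rl was lost without preadipocyte replicate 4 (0.0839) or 5 (0.0506) or regular_diff replicate 5 (0.144) or 6 (0.0622), over a range of 0.00905 to 0.144.

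**Figure D4:**
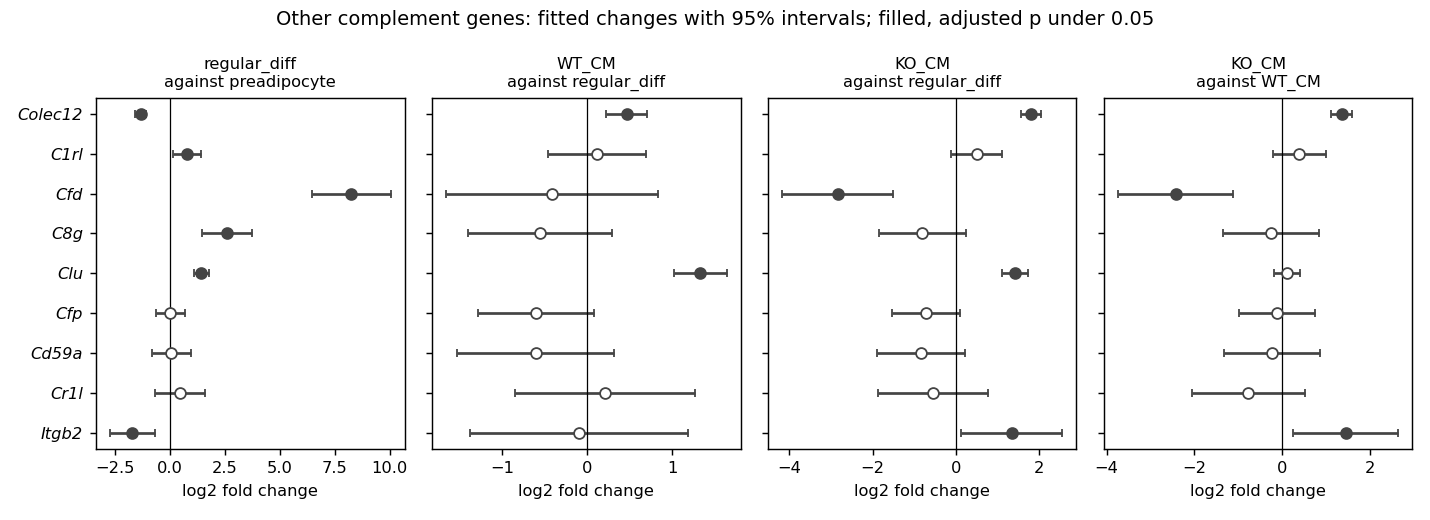
Log2 fold change of the 9 other complement genes tested in 4 comparisons, with 95% intervals made as for the members. Filled points have an adjusted p under 0.05. Colec12 lies above 0 and Cfd below 0 in KO_CM against regular_diff and against WT_CM. Clu lies above 0 in both media against regular_diff.

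The C1 inhibitor gene Serping1, whose product blocks C1r, C1s and the MASP proteases, was in the table but below the count filter. It had 1, 1 and 2 counts in preadipocyte, 1, 0 and 0 in regular_diff, 4, 8 and 7 in WT_CM and 5, 4 and 1 in KO_CM. Masp2, Cd55, Cd93 and C4a were also below the filter, and the remaining 33 listed genes, among them the C1q chains, C2 and C3ar1, were not analysed here.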

How the data were processed

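RNA of 12 libraries of 3T3-L1 cells was counted by MARS-seq. The authors deposited 1 table of 11035 genes, in which the columns used hold raw UMI counts as whole numbers. The submitters' processing notes name cutadapt, HTSeq, DESeq2 and mm10. Versions, annotation and strand setting: not given in the sources used here. Counts of 3′ ends do not grow with transcript length, and reads shared between gene copies can move from one copy to the other. Another 24 columns of per-sample values were not used. The table holds 0 mitochondrial genes, and the lowest maximum of a gene over the libraries is 6 counts.

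The sample titles give the group and replicate number of each library. The count test was edgeR's quasi-likelihood test (edgeR 4.0.16, R 4.3.3, robust, with TMM scaling and filterByExpr), fitted over the 12 libraries as 4 group means. It took in 9519 genes and left out 1516. P-values are two-sided, with Benjamini-Hochberg adjustment across the 9519 genes and a threshold of 0.05 on the adjusted value. The biological coefficient of variation common to all genes was 0.126. Log2 CPM used a prior count of 2. The test was checked on simulated counts.

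The members and lists were chosen with earlier results of these data known. All 8 members are named, and of the other complement lists every called gene could be named, up to 8 per comparison by size of change. For each member the 3 genes nearest in centred log2 CPM were found, and the text names the first. Coordinates are from GENCODE vM21 on mm10, and promoter windows from RefSeq on GRCm38.p6. Sharing of 3′ sequence was measured in stretches of 31 bases, every 10 bases, and over 10% shared was taken as uncertain.

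Alternatives were other scalings, no filter, DESeq2 1.42.0, a fit of only the 6 libraries compared, a replicate block, summed copies, thinning to the smallest total, leaving out each library, and leaving out the pair that stood apart. For the other complement genes they were added after seeing the data. Figures were drawn in Python 3.11.15 with matplotlib 3.10.9.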

Additional observations from a re-analysis of the deposited data

Results flagged for a closer look

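C3 and Cfb differed between the media in the direction of their values against regular_diff: every WT_CM library lay above every regular_diff library, and every KO_CM library lay below every regular_diff library. The difference itself, KO_CM against WT_CM, was -0.74 on the log2 scale for C3 and -1.89 for Cfb, both called by edgeR. Only the KO_CM value of each was called against regular_diff, and for Cfb that call rests on 14 counts over the 3 KO_CM libraries.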

How the results depend on the processing

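Over 945 recomputed values of single members, 909 kept their direction and side of the threshold, 23 lost the call, 13 gained it and 0 reversed. The number of members called was 8 throughout for regular_diff against preadipocyte and for KO_CM against WT_CM, and ran from 6 to 8 for KO_CM against regular_diff and against preadipocyte, from 4 to 7 for WT_CM against preadipocyte, and from 3 to 7 for WT_CM against regular_diff. In that last comparison 7 members were called, all higher, in a fit of only the 6 libraries compared and again without preadipocyte replicate 5 and KO_CM replicate 1, against 4 with all 12 libraries. With each library left out in turn it ran from 3 to 5. Thinning all libraries to the smallest total lost C1s1 there (edgeR adjusted p = 0.0643, over a range of 0.000562 to 0.0643). The fall of Cfb in KO_CM against regular_diff was not called by DESeq2 (0.101), under library size scaling (0.0533) or after thinning (0.057), over a range of 0.0371 to 0.168. Under library size scaling the median of all genes was -0.22 in regular_diff against preadipocyte and -0.18 in WT_CM against preadipocyte. With TMM scaling these medians were -0.06 and -0.04. In WT_CM against preadipocyte library size scaling also brought Masp1 past the threshold (edgeR adjusted p = 0.0132, over a range of 0.0132 to 0.292). It left the direction of every member as it was. Summing near-identical copies gave values for the sums and no member count. Cfb could not be fitted in 1 alternative of KO_CM against preadipocyte, since its counts fell below the filter. Of the other complement genes named, Clu changed sign in KO_CM against WT_CM, to -0.0095 without both libraries that stood apart, and it ran from -0.012 without KO_CM replicate 1 to 0.21 without KO_CM replicate 3, never called. Libraries that share a number were compared by their deviations from the group means. The correlations were -0.01, 0.12 and 0.07 between preadipocyte and regular_diff and -0.04, 0.04 and -0.05 between WT_CM and KO_CM. For libraries of different numbers they ran from -0.11 to 0.08 and from -0.04 to 0.08. With 3 libraries per group these values cannot decide whether the numbers pair the libraries. A fit with the replicate number as a block called 8 members in each of these comparisons, as the fit without it did. Cfb had 14 counts over the 3 KO_CM libraries, which limits its precision there.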
